A study of Mus musculus with 5 samples.

Results

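The choroid plexus is the secretory epithelium that lines parts of the brain ventricles and makes cerebrospinal fluid. Its cells release carrier and binding proteins such as transthyretin into the fluid, move ions, water and folate across the epithelium, and are not neurons. The 10 genes described here, all known for high expression in this epithelium, are Ttr, Enpp2, Igfbp2 and Sostdc1 (secreted proteins), Kcnj13, Aqp1 and Clic6 (channels), Folr1 and Kl (receptors) and Ace (a membrane enzyme). They were chosen by gene name, after earlier results of the same libraries had shown Ttr and Kcnj13 to be lower after fear conditioning. All 10 were listed among the 15093 genes of the deposited table. Because the comparison of the groups was known when the genes were chosen, their differences between groups are given as a description, with no test.

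Ribosome-bound RNA was taken from the central amygdala (CeA) of adult Drd2-TRAP mice, which carry Drd2-Cre and a Rosa26 fs-TRAP allele, so that every cell with a history of Cre expression tags its ribosomes with EGFP-L10a. Both groups carry this genotype. The 3 fear conditioning (FC) libraries are called replicates 2, 3 and 4 and the 2 home cage (HC) libraries replicates 6 and 7, and each is a pool of 1 mm punches from 3 animals taken 2 h after the session. The labels name home cage controls and a session of fear extinction, whereas the text of the study describes controls that heard the tone without shock and a collection after conditioning. The sex of these animals is not given in the sources used here. In such pooled tissue, fewer cells of a type and less RNA per cell cannot be told apart.

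Between 19605318 and 27937520 reads on genes were recovered per library, and 3 reads, taken as the floor, correspond to between 0.10 and 0.158 counts per 1000000 (CPM). The HC libraries stood apart from the FC libraries and from each other. In HC replicate 7, 2681 genes (17.8%) were listed at 0, and in HC replicate 6, 976 genes (6.47%), against between 159 and 349 in the FC libraries. Of the 2276 genes with 200 to 500 reads in HC replicate 6, 602 (26.4%) had 3 reads or fewer in HC replicate 7. Of the 2055 genes with 200 to 500 reads in HC replicate 7, 99 (4.82%) had 3 reads or fewer in HC replicate 6, and between FC replicate 2 and either other FC library this happened to 0 of 2566 such genes. Genes of striatal Drd2 neurons were abundant in every library, with a summed value over 10 genes of 22900, 23797 and 25239 CPM in FC replicates 2, 3 and 4 and 8631 and 14467 in HC replicates 6 and 7.

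Promoter sequences were available for 5 of the 10 genes, from RefSeq (GRCm38.p6). The following 3 are shown because Kcnj13 and Kl were higher in both HC libraries and Ace only in HC replicate 6. Each is the 250 bases before the annotated start, 5′ to 3′ on the strand of the gene, and capitals mark a match to TAATCC, the core letters bound by Otx2-type homeodomain factors, which specify this epithelium.
Kcnj13, chr1:87394730-87394979, minus strand: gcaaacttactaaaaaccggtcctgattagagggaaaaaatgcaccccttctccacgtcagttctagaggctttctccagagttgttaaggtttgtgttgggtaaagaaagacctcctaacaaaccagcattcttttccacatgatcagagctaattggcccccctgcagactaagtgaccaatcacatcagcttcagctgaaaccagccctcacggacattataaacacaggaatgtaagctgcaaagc
Kl, chr5:150952357-150952606, plus strand: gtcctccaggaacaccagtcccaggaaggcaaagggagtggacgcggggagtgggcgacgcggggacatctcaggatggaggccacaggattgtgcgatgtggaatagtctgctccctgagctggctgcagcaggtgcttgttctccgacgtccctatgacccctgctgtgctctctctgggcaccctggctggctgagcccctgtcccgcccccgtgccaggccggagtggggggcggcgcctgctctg
Ace, chr11:105967698-105967947, plus strand: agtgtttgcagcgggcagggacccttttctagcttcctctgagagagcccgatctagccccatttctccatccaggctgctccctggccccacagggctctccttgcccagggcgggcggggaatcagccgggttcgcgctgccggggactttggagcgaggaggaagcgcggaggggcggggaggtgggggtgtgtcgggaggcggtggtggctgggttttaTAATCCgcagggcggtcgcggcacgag
TAATCC or its reverse complement GGATTA was found in 1 of the 7 windows of these 5 genes, that of Ace, where it begins 27 bases before the start. Over all 32851 windows of this length in the table, 6.25% hold it. A forkhead core, GTAAACA (reverse complement TGTTTAC), was found in none of the 7 windows and in 3.17% of all windows. No window held both motifs.

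Of the 10 genes, 5 had all 3 FC values below both HC values (Ttr, Enpp2, Kcnj13, Sostdc1 and Kl), where 14.8% of all listed genes did. None had all FC values above both HC values. Of the other 5, 4 (Folr1, Aqp1, Ace and Igfbp2) were higher than every FC library in HC replicate 6 and not in HC replicate 7, and Clic6 was as high in FC as in HC. limma called 0 of 13560 genes (0%) at an adjusted p of 0.05 and an absolute log2 fold change of 0.5, with 2280 genes at an unadjusted p under 0.05. edgeR's quasi-likelihood test on the recovered reads also called 0 of 14489, while DESeq2 called 1128.

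**Figure D1:**
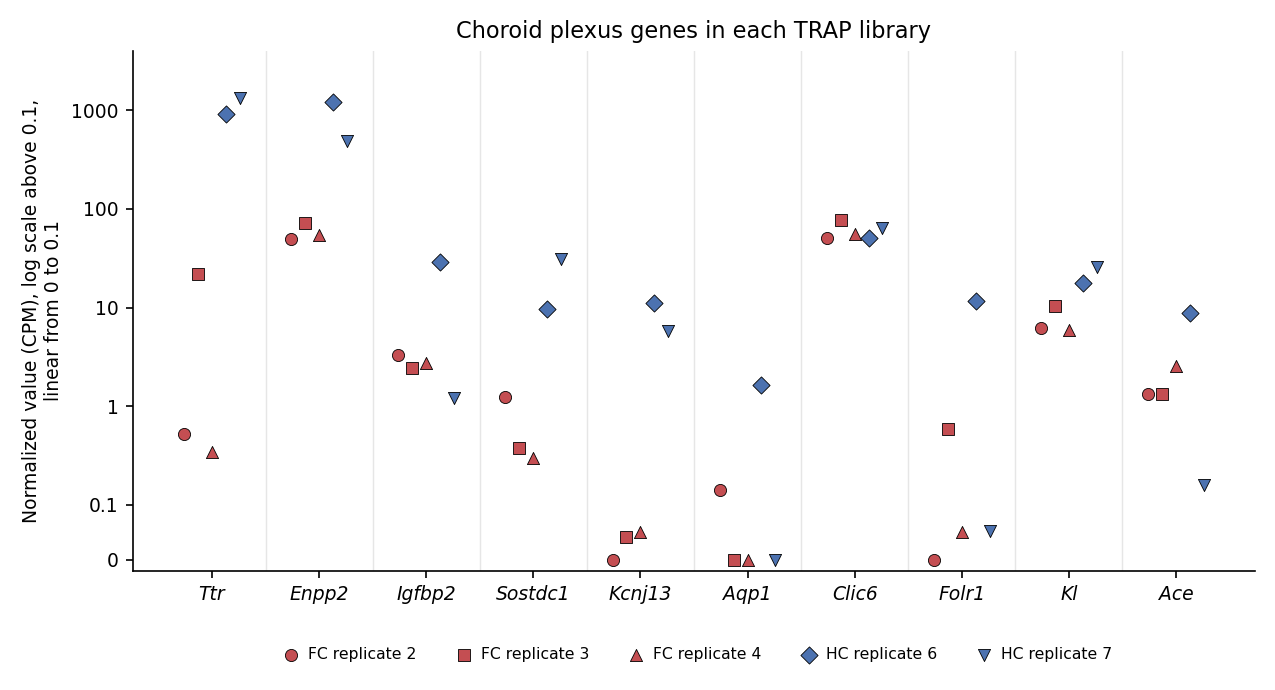
Normalized value (CPM, log scale above 0.1 and linear from 0 to 0.1) of the 10 genes in each library, with FC libraries in red and HC libraries in blue, 1 point per library. The HC points lie above all FC points for Ttr, Enpp2, Sostdc1, Kcnj13 and Kl, while HC replicate 7 lies at or among the FC points, or below them, for Igfbp2, Aqp1, Clic6, Folr1 and Ace.

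Among the secreted proteins, Ttr (ENSMUSG00000061808), the carrier of thyroxine and of retinol-binding protein, had 0.522, 22.1 and 0.348 CPM in FC replicates 2, 3 and 4 and 913 and 1320 in HC replicates 6 and 7. These were 11, 530 and 7 reads in FC and 27330 and 25025 in HC. FC replicate 3 thus stood well above the other FC libraries and well below both HC libraries. The HC mean was 146 times the FC mean, and on the log2(value + 1) scale the difference of FC minus HC was -8.25 (standard error 1.24). The ratio rests on FC replicate 3: without it the HC mean was 2569 times the FC mean, and the log2 difference was -9.58. Ttr ranked above 99.5% and 99.6% of the listed genes in HC replicates 6 and 7, and above 54.6% in FC replicate 3 but only 6.97% and 4.78% in FC replicates 2 and 4.

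Enpp2 (ENSMUSG00000022425), which encodes autotaxin, the secreted enzyme that makes lysophosphatidic acid, had 49.9, 72.4 and 53.7 CPM in FC replicates 2, 3 and 4 and 1201 and 482 in HC replicates 6 and 7. Unlike Ttr it was well detected in FC, with at least 1052 reads in each library, and it was higher in HC replicate 6 than in replicate 7. The HC mean was 14.3 times the FC mean, a log2 difference of -3.69 (standard error 0.42). Without HC replicate 6 the ratio was 8.21 and the log2 difference -3.04, and without HC replicate 7 they were 20.5 and -4.35. Oligodendrocytes also make Enpp2, and the summed value of 10 oligodendrocyte genes, none of them at 3 reads or fewer in any library, was between 1284 and 2732 CPM in FC, 2815 in HC replicate 6 and 5384 in HC replicate 7. That sum was highest in the HC library in which Enpp2 was the lower of the 2, and the part of these cells in the result was not tested.

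Sostdc1 (ENSMUSG00000036169), a secreted antagonist of BMP and Wnt signals, had 1.23, 0.375 and 0.298 CPM in FC replicates 2, 3 and 4 and 9.58 and 31.2 in HC replicates 6 and 7. Its order within each group was not that of Enpp2, since the highest FC library was replicate 2 and the highest HC library replicate 7. The HC mean was 32.1 times the FC mean (log2 difference -3.54, standard error 0.70). The ratio was 15.1 without HC replicate 7, 49.1 without HC replicate 6 and 60.6 without FC replicate 2, with log2 differences of -2.74, -4.34 and -3.79.

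Igfbp2 (ENSMUSG00000039323), which binds insulin-like growth factors and is also made by astrocytes, had 3.27, 2.46 and 2.73 CPM in FC replicates 2, 3 and 4 and 28.7 and 1.21 in HC replicates 6 and 7. The FC values lay close together, and the HC libraries lay on either side of them, 10.2 times the FC mean in replicate 6 and 0.430 times in replicate 7. The log2 difference of -1.09 (standard error 1.10) was smaller than its error. Over 10 astrocyte genes the summed value was between 913 and 1154 CPM in FC, 2366 in HC replicate 6 and 3006 in HC replicate 7, the sum being carried by a few abundant genes. Of the 10 genes, 7 were lower in HC replicate 7 than in HC replicate 6, as Igfbp2 was, where 55.4% of all genes were. The part of astrocytes in the result was not tested.

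Among the channels, Kcnj13 (ENSMUSG00000079436), the inward rectifier Kir7.1 of the apical membrane, had 0, 1 and 1 reads in FC replicates 2, 3 and 4 and 335 and 110 in HC replicates 6 and 7 (11.2 and 5.80 CPM). Since no FC library passed 3 reads, the HC mean was at least 61.2-fold higher than FC, with the floor of 3 reads taken per FC library and averaged. HC replicate 6 was the higher of the HC libraries, so this bound does not hold for HC replicate 7 alone. In RefSeq it overlaps Gigyf2, a listed gene with between 971 and 1683 reads in every library, and the sources used here do not give a strand setting for the counting. The part of Gigyf2 reads in the Kcnj13 values was not tested.

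Aqp1 (ENSMUSG00000004655), the water channel of the apical membrane, had 3, 0 and 0 reads in FC replicates 2, 3 and 4 and 49 and 0 in HC replicates 6 and 7. It was detected above the floor in 1 library only, at 1.64 CPM in HC replicate 6, which is at least 11.8-fold over the FC floor, and its mean value was too low for the limma fit. A count of 0 in HC replicate 7 allows up to 0.158 CPM.

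Clic6 (ENSMUSG00000022949), an intracellular chloride channel protein, had 50.9, 77.2 and 56.2 CPM in FC replicates 2, 3 and 4 and 51.1 and 64.2 in HC replicates 6 and 7. Its levels overlapped fully between the groups, with 61.5 ± 13.9 CPM (SD, n = 3) in FC and 57.6 ± 9.25 (SD, n = 2) in HC and a log2 difference of 0.08 (standard error 0.30). It was thus abundant in FC replicates 2 and 4, in which Ttr had 11 and 7 reads.

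Among the receptors, Folr1 (ENSMUSG00000001827), the folate receptor alpha through which folate enters the cerebrospinal fluid, had 0, 14 and 1 reads in FC replicates 2, 3 and 4 and 345 and 1 in HC replicates 6 and 7. HC replicate 6 alone was high, at 11.5 CPM, and HC replicate 7, the library with the highest Ttr value, held a single read. Within FC the highest library was replicate 3, as for Ttr.

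Kl (ENSMUSG00000058488), klotho, a coreceptor of fibroblast growth factor 23 that is also shed into the fluid, had 6.26, 10.4 and 5.91 CPM in FC replicates 2, 3 and 4 and 17.9 and 25.7 in HC replicates 6 and 7. The groups did not overlap, but the HC mean was only 2.90 times the FC mean (log2 difference -1.44, standard error 0.52).

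Ace (ENSMUSG00000020681), angiotensin-converting enzyme, which striatal neurons and endothelial cells also make, had 28, 32 and 51 reads in FC replicates 2, 3 and 4 and 263 and 3 in HC replicates 6 and 7. In CPM these were 1.33, 1.33 and 2.53 in FC and 8.78 and 0.158 in HC. The HC libraries again lay on either side of FC, and the log2 difference of -0.33 (standard error 0.96) was smaller than its error. Endothelial genes gave a summed value over 10 genes of between 20.9 and 50.8 CPM in FC, 69.8 in HC replicate 6 and 243 in HC replicate 7. Of the 10, 3, 1 and 2 had 3 reads or fewer in FC replicate 3 and HC replicates 6 and 7. Ly6c1 alone gave 150 CPM of the sum in HC replicate 7, and 8.98 in HC replicate 6. Cdh5, Kdr and Abcb1a were also higher in HC replicate 7 than in HC replicate 6. Cldn5, Flt1, Pecam1, Esam and Slco1a4 were lower, as Ace was, and Tek had 0 in both. The part of endothelial cells in the result was not tested.

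Per kb of deposited gene length, Ttr was the highest of the 10 genes in both HC libraries, at 751 and 1086 CPM per kb, followed by Enpp2 at 294 and 118. In HC replicate 6, Clic6 (13.1) and Igfbp2 (12.9) came next. In HC replicate 7, Sostdc1 (17.8) and Clic6 (16.4) did. In all 3 FC libraries Clic6 was the highest, at 13.03, 19.8 and 14.4 CPM per kb in replicates 2, 3 and 4. Enpp2 followed at 12.2 and 13.2 in replicates 2 and 4, and in replicate 3 Ttr (18.2) lay between Clic6 and Enpp2 (17.7).

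The next question was whether each gene kept 1 fixed proportion to Ttr in every library. This proportion, the reads of a gene per 1000 reads of Ttr, does not depend on the scaling of the library, and the length of a gene cancels when that gene is compared between libraries. It was given an exact (Clopper-Pearson) 95% interval. Reads copied from 1 molecule by amplification are counted separately, so this interval holds the counting error and no other. The HC libraries, with at least 25025 Ttr reads each, give the narrowest intervals, and the comparison is of these 2 libraries and not of conditions. Of the 9 genes, 8 had intervals that did not overlap between HC replicates 6 and 7, of which 7 were lower and 1 was higher in replicate 7. Over all 12429 genes with at least 100 reads in the 2 libraries together, 91.3% differed in this way, so the share among the 9 genes was near the background. Over these genes the log2 difference of the proportion, replicate 7 minus replicate 6, had a median of -0.74, with quartiles at -2.28 and 0.28.

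Only Kl kept its proportion to Ttr between the HC libraries within counting error, at 19.6 (95% interval 18.0 to 21.4) and 19.5 (17.8 to 21.3) reads per 1000 Ttr reads in replicates 6 and 7. Clic6 came next, at 56.0 (53.1 to 58.9) and 48.6 (45.9 to 51.5), a change of 1.15-fold. Neither gene followed Ttr outside these libraries, however. In FC replicate 3 the proportion was 472 (404 to 549) for Kl and 3500 (3176 to 3862) for Clic6.

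Relative to Ttr, Enpp2 and Kcnj13 were lower in HC replicate 7 than in HC replicate 6, and Sostdc1 was higher. Enpp2 went from 1316 (1295 to 1337) per 1000 Ttr reads in HC replicate 6 to 365 (356 to 374) in replicate 7, 3.60-fold lower. Sostdc1 went from 10.5 (9.32 to 11.8) to 23.6 (21.7 to 25.6), 2.25-fold higher. Kcnj13 went from 12.3 (10.97 to 13.7) to 4.40 (3.61 to 5.30), 2.79-fold lower.

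The remaining 4 genes were lower relative to Ttr in HC replicate 7 by more than 10-fold. Igfbp2 went from 31.5 (29.4 to 33.7) to 0.919 (0.583 to 1.38) per 1000 Ttr reads, 34.2-fold lower. Ace went from 9.62 (8.49 to 10.9) to 0.120 (0.0247 to 0.350). Folr1 went from 12.6 (11.3 to 14.0) to 0.0400 (0.00101 to 0.223), and Aqp1 from 1.79 (1.33 to 2.37) to 0 with an upper bound of 0.147. With 1 and 3 reads in replicate 7, Folr1 and Ace had log2 differences with wide intervals, from -13.61 to -5.82 for Folr1 and from -8.61 to -4.76 for Ace. Loss of this size between the HC libraries was common over the whole table, as given above for genes of 200 to 500 reads, and its part in these values was not tested.

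**Figure D2:**
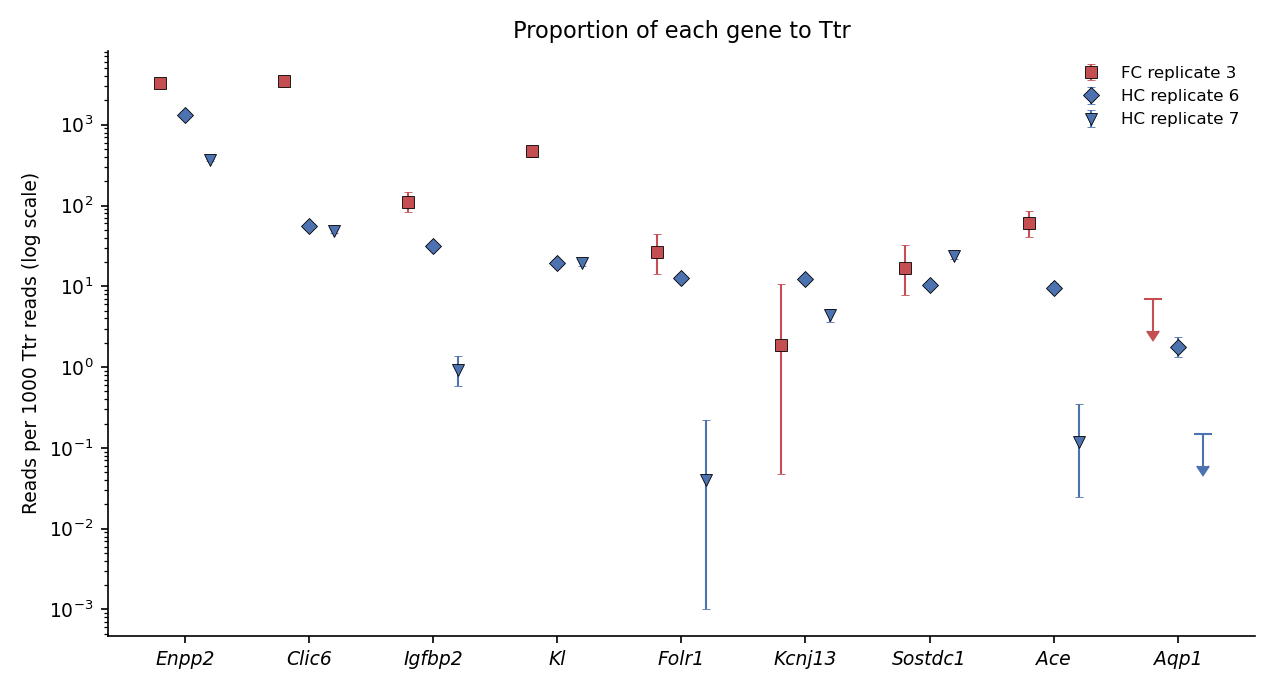
Reads of each gene per 1000 Ttr reads (log scale) in FC replicate 3 (red) and HC replicates 6 and 7 (blue), with exact 95% intervals of counting error; a bar with an arrow is the upper bound where no read was found. Only Kl has overlapping intervals in the 2 HC libraries, and Clic6 and Kl lie far higher in FC replicate 3 than in either HC library.

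FC replicate 3, with 530 Ttr reads, is the FC library in which the proportion to Ttr could be set against HC with the most precision. At the proportion of HC replicate 6 it would hold 6.69 reads of Folr1, and it held 14 (exact Poisson 95% interval 7.65 to 23.5), while at the proportion of replicate 7 it would hold 0.0212. It held 9 reads of Sostdc1 (4.12 to 17.1), which spans both the 5.57 and the 12.5 reads at the proportions of replicates 6 and 7. It held 1 read of Kcnj13 (0.0253 to 5.57), where 6.50 and 2.33 would follow from the same proportions. For Aqp1 less than 1 read would follow, and none was found. The other 5 genes were above both proportions, among them Clic6, with 1855 reads where 29.7 and 25.8 would follow. With Folr1, 6 of the 9 genes were above both, where 97.4% of 12421 other genes with at least 100 HC reads were. Ttr was itself chosen as a gene low in FC, so a high share is set by that choice. In FC replicates 2 and 4, with 11 and 7 Ttr reads, the reads of Kcnj13 and Folr1 spanned the number at the HC replicate 6 proportion, which was under 1 read for both genes, so these libraries are not informative for them. Sostdc1 did not keep its proportion there, with 26 (17.0 to 38.1) and 6 (2.20 to 13.1) reads. At the HC replicate 7 proportion, the higher of the HC proportions, 0.260 and 0.165 would follow. Enpp2, Clic6, Kl, Ace and Igfbp2 were also above both proportions in FC replicates 2 and 4. The choice of Ttr bears on this too, and the share of all genes was not counted for these libraries.

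The spread of each gene over the libraries was compared with that of Ttr by dividing its 5 values by their sum. The sum of the absolute differences between these shares, times 0.5, is 0 for a gene with the same proportion to Ttr in all libraries and 1 for a gene found only where Ttr is not. Over the 13826 other genes with at least 100 reads in all, the median distance was 0.585, with 5% of genes under 0.334. Of the 8 measured genes, Sostdc1 (0.181), Kcnj13 (0.253), Enpp2 (0.326) and Kl (0.331) lay under that 5% bound, and Igfbp2 (0.554), Ace (0.574), Folr1 (0.581) and Clic6 (0.605) lay near the median. Aqp1 had fewer than 100 reads. These distances use the values on which the genes were chosen and are a description.

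**Figure D3:**
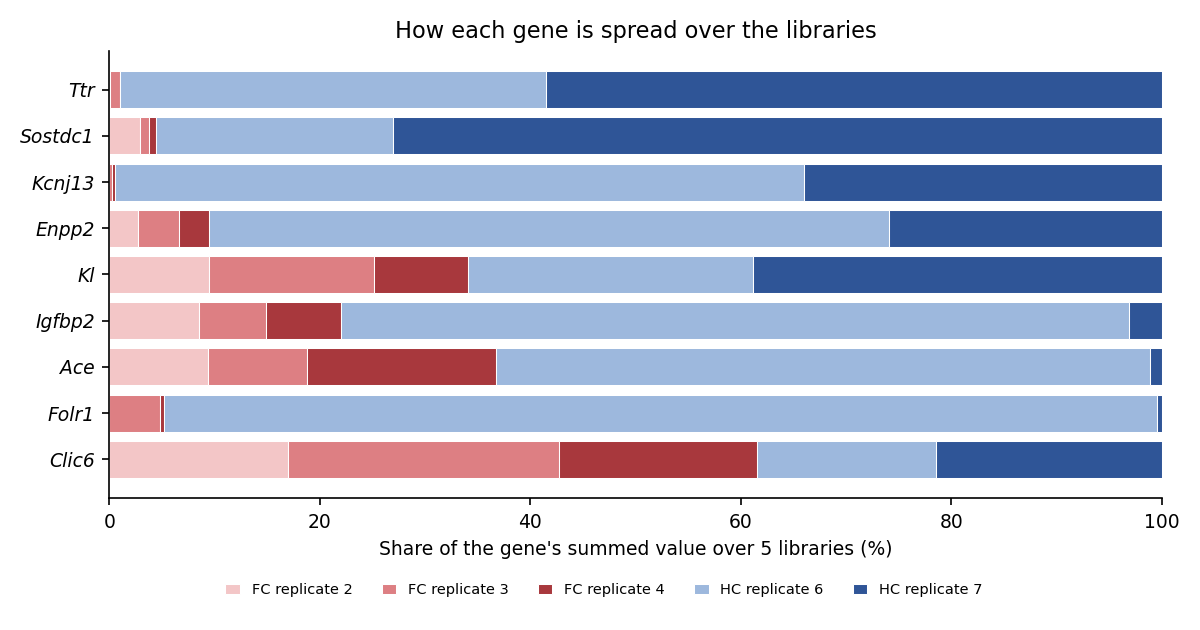
Share of the summed value of each gene that came from each library (%), with FC libraries in red shades and HC libraries in blue shades, ordered by distance from Ttr; Aqp1, with fewer than 100 reads, is not drawn. Ttr, Sostdc1, Kcnj13 and Enpp2 came mostly from both HC libraries, Igfbp2, Ace and Folr1 mostly from HC replicate 6, and Clic6 from all 5 libraries.

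The 10 genes nearest to Ttr by this measure, other than those described, were Gm5531 (0.044), Calml4 (0.046), Gm16432, Evi2b, Mycbpap, Gbp3, Ms4a6b, Grp, Il13ra1 and Gm10702 (0.123), over 5 libraries. Calml4 (ENSMUSG00000032246), a calmodulin-like protein of the choroid plexus, had 0, 4 and 0 reads in FC replicates 2, 3 and 4 and 208 and 158 in HC replicates 6 and 7. Gm5531 had 0, 7 and 4 reads in FC and 105 and 96 in HC. Calml4 was thus nearer to Ttr than the 8 genes measured above, and its proportion to Ttr was 7.61 and 6.31 per 1000 Ttr reads in HC replicates 6 and 7, with intervals that overlapped. In FC replicate 3, its 4 reads (1.09 to 10.2) spanned the 4.03 and 3.35 that these proportions would give. Since Calml4 was picked for its likeness to Ttr in these libraries, this restates that choice.

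Of 31 further genes known for choroid plexus epithelium, 26 were listed. All FC values were below both HC values for 10 of them (38.5%, against 14.8% of all genes) and above both for 3 (11.5%, against 21.6%), and the median log2 difference of the 23 that entered the limma fit was -1.44, against 0.08 over all genes. HC replicate 6 was above every FC library for 22 of the 26 (40.7% of all genes), HC replicate 7 for 11 (35.2% of all genes), and HC replicate 7 was below every FC library for another 11 (51.2% of all genes). For HC replicate 7 both shares of the list lay near those of all genes. Of the 26 genes, 23 had proportions to Ttr with intervals that did not overlap between the HC libraries, 18 lower and 5 higher in replicate 7. Over all genes with at least 100 reads in these 2 libraries together, 91.3% differed in this way, so the list was near the background.

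The 12 of these genes with the highest HC level per kb are described next. A gene could enter these 12 through HC replicate 6 alone, so the numbers that were high in HC are largely set by that choice. The secreted product 1500015O10Rik (0, 21 and 0 reads in FC replicates 2, 3 and 4, 798 and 39 in HC replicates 6 and 7) and the collagen Col8a2 (8, 10 and 2, then 373 and 26) were higher in both HC libraries, more so in replicate 6. The transporter Slc29a4 (207, 179 and 118 reads in FC, 507 and 404 in HC), the serotonin receptor Htr2c (482, 616 and 609, then 1512 and 1965) and the cation channel Trpm3 (57, 42 and 44, then 610 and 312) were higher in both, and were also well detected in FC. With Calml4 these were 6 of the 12. Another 5 were high in HC replicate 6 alone. The potassium channel subunit Kcne2 had 0, 16 and 3 reads in FC and 315 and 1 in HC, and the homeobox gene Msx1 had 10, 16 and 16 and then 580 and 0. Rdh5, a retinol dehydrogenase, had 430 and 0 reads in HC replicates 6 and 7, Wfdc2 had 155 and 0, and the carbonic anhydrase Car14 had 427 and 6. Car12, another carbonic anhydrase, went the other way, with 36.9, 67.5 and 41.8 CPM in FC and 14.0 and 31.7 in HC.

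**Figure D4:**
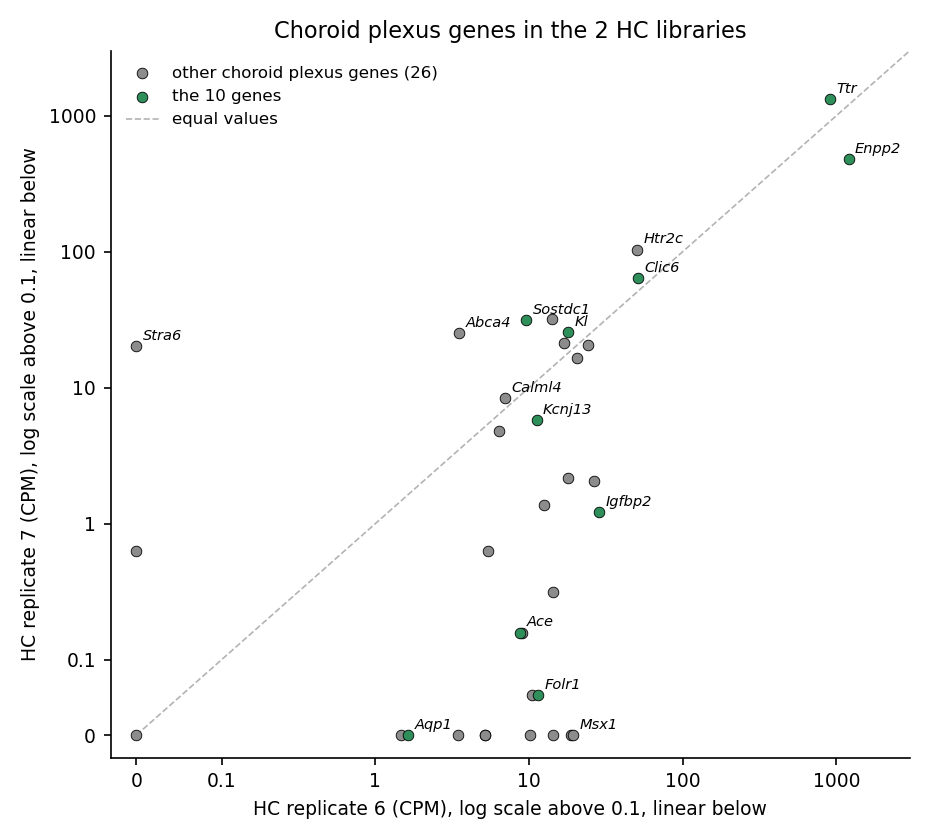
Values of the 10 genes (green) and of 26 other choroid plexus genes (grey) in HC replicate 6 (x axis) and HC replicate 7 (y axis), in CPM on a log scale above 0.1 and a linear scale from 0 to 0.1, with a dashed line of equal values. Ttr, Clic6, Kl and Calml4 lie near the line, while Folr1, Ace, Aqp1 and Igfbp2 fall far below it together with many grey points.

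FC replicate 3 held more reads than the other FC libraries of some transcripts that were near 0 there, namely Ttr and Folr1 and, among the 12 genes, Calml4, 1500015O10Rik and Kcne2. Kcnj13, with 0, 1 and 1 reads, and Aqp1, with 3, 0 and 0, were not higher in it. Over the 26 genes, FC replicate 3 was above both other FC libraries for 11 (42.3%), where 35.7% of all listed genes were, so the list as a whole did not stand out. Its reads spanned the number that the HC replicate 6 proportion to Ttr would give for 10 of the 26 genes, and the number of the HC replicate 7 proportion for 2, while 16 were above both. Of the 12421 genes with at least 100 HC reads, a filter not put on the 26, 1.65% and 1.24% spanned these numbers and 97.4% were above both. Steap1, with 44 and 0 reads in HC replicates 6 and 7, spanned both with 0 reads in FC replicate 3, where less than 1 would follow. Read number sets the width of these intervals, and its part in the difference was not tested. In the same library, each of the lists of endothelial, oligodendrocyte, astrocyte and microglia genes had 9 of 10 genes at their lowest FC value. Of the 26 further choroid plexus genes 3 were at their lowest FC value there, and of the 10 striatal Drd2 neuron genes 1. The share of all listed genes at their lowest there was not counted, so these counts are not read as a result about these cells.

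Markers of other cells that border the ventricles or meninges were also measured. Of 12 ependymal genes 9 were listed, with a summed value of between 10.3 and 15.0 CPM in FC, 34.2 in HC replicate 6 and 23.6 in HC replicate 7. Of the 9, 4 were at 0 in HC replicate 7, where 17.8% of all listed genes were. Of 12 meningeal fibroblast genes 9 were listed, with sums between 58.0 and 84.3 CPM in FC, 204 in HC replicate 6 and 72.8 in HC replicate 7. Of the 9, 7 had 3 reads or fewer in HC replicate 7, where 21.3% of all listed genes had fewer than 3. Dcn, Fmod, Pcolce and Bgn, named after their values were seen, had 908, 495, 465 and 382 reads in HC replicate 6. They had 2, 0, 0 and 1 in HC replicate 7, and so were high in the library in which Folr1, Ace and Igfbp2 were high. Not all of the list went this way. Col1a2 had 231 and 459 reads in HC replicates 6 and 7, and Col3a1 had 0 in both. Aldh1a2 and Slc6a13 were lower in HC replicate 6 than in every FC library. Of the 9, 7 (77.8%) were lower in HC replicate 7 than in HC replicate 6, against 55.4% of all genes. Microglia genes had sums between 66.3 and 128 CPM in FC and 147 and 128 in HC replicates 6 and 7. Of the 10, 7 (70%) were lower in HC replicate 7 than in HC replicate 6, against 55.4% of all genes. The part of these cells in the levels of the 10 genes was not tested. Between the FC and HC groups, the amount of choroid plexus RNA, the condition of the mice and the pool of tissue cannot be told apart, since each library is its own pool.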

How the data were processed

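Ribosome-bound RNA was sequenced by the authors as 50-base paired ends and analysed with Tuxedo DESeq software. The submitters' processing notes list mm8 and DESeq, and the aligner is not given in the sources used here. The authors deposited 1 normalized signal for each gene in each library, on a scale of counts per 1000000 reads (CPM), and a gene length. Dividing a value by what 1 read is worth in its library gave a whole number, within 0.01, for 100% of values, taken here as the reads. Sums of 932938 to 1042030 per library made the unit a signal rather than a count.

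Groups were fitted with limma 3.58.1 after adding 1 and taking log2, leaving out genes whose mean was under 1, as a two-sided test adjusted by Benjamini-Hochberg. With 3 libraries against 2, an exact permutation test cannot go below p = 0.1. edgeR 4.0.16 and DESeq2 1.42.0 were run on the recovered reads. Fits were checked on simulated counts that had the same spread in all libraries. That check does not cover HC libraries that differ from each other as these did. Proportions to Ttr are described in the text. The members and lists were chosen with earlier results of these data known. The genes named are the 10 members, the 12 further choroid plexus genes with the highest HC value per kb and the 10 nearest to Ttr in library shares. R 4.3.3 and Python 3.11.15 were used.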

Additional observations from a re-analysis of the deposited data

How the results depend on the processing

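The count of genes past both cutoffs was 0 without the filter on low values, with 0.1 added to each value, with quantile normalization, without the fold change cutoff and with edgeR's quasi-likelihood test, 1128 with DESeq2, and between 0 and 8025 with each library left out in turn. It was 1 without FC replicate 3, 8025 without HC replicate 6 and 3722 without HC replicate 7. In the last 2 fits the lone HC library is assumed to vary like the FC libraries. The number of the 10 genes below both HC libraries in every FC library ranged from 5 to 9 with 1 library left out, and was 9 without HC replicate 7. For the 26 further genes it ranged from 10 to 22, and was 22 without HC replicate 7. Quantile normalization gave 8 and 17 genes. By its construction it moves the 2681 values at 0 in HC replicate 7 to 0.415, above the FC values of low genes. TMM scaling left the first count at 5. The number of genes with a changed proportion to Ttr was 8, and 7 to 8 under its alternatives.

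Of the fitted differences of the 10 genes, 11 alternative values moved by more than the spread between replicates without turning sign and 5 turned sign. Signs turned only for small or split differences. The log2 difference of FC minus HC for Clic6 was -0.096 without FC replicate 3 and -0.084 without HC replicate 6. For Ace it was 0.21 with 0.1 added, and with 1 library left out it ran from -1.87 (without HC replicate 7) to 1.21 (without HC replicate 6). For Igfbp2 the same settings gave -2.97 to 0.78. The change of proportion between the HC libraries was 0.0079 for Clic6 and 0.24 for Kl with 5 summed members as the reference, and 0.27 for Kl with the FC mean subtracted. No paired analysis was possible because the groups share no replicate numbers. With 3 and 2 libraries a group, outlying libraries were not tested for. The proportion of Aqp1, at 0 in HC replicate 7, and its fitted difference have no alternative values, and with the FC mean subtracted neither has the proportion of Folr1, Ace, Igfbp2 or Clic6, which were not above that mean in both HC libraries. For genes at 3 reads or fewer, depth limits a library to an upper bound.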

Other observations

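Among the further choroid plexus genes, 3 of retinoid handling differed between the HC libraries, and were picked out after the values were seen. Stra6, a membrane protein of retinol uptake, had 32, 18 and 7 reads in FC replicates 2, 3 and 4, 0 in HC replicate 6 and 382 in HC replicate 7. Abca4, a retinoid transporter, was also highest in HC replicate 7 (25.3 CPM, against 3.51 in HC replicate 6), while Rdh5 was highest in HC replicate 6 (14.4 CPM, against 0 in HC replicate 7). Cldn1, a tight junction protein, was listed at 0 in both HC libraries and had 37, 100 and 99 reads in FC replicates 2, 3 and 4. Otx2, the homeobox gene that specifies the epithelium, had 154 reads in HC replicate 6 and 0 in HC replicate 7, in which 17.8% of all listed genes were at 0. Cldn1 and Otx2 were also picked out after the values were seen.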
